A study of Mus musculus with 9 samples.

Results

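The genes of the eukaryotic translation initiation factors were compared between lung CD103+ dendritic cells taken directly from tissue and the same kind of cells after culture. Members were the table rows whose symbol begins with Eif and a digit from 1 to 6, without the kinase Eif2ak2 and without 7 rows of pseudogene copies marked -ps. There were 69 members among 45535 rows with a symbol. Of these, 52 had a mean of at least 10 normalized counts and were tested, as were 18202 genes of the whole table. A normalized count is a gene's read count divided by 1 scaling factor per sample, and gene length has no part in it.

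All samples came from C57/BL6j mice given bleomycin, a drug that injures the lung and leads to scarring, for 7 days. Lungs were digested with collagenase and CD103+ cells were taken with magnetic beads. The group before culture (n = 5) was harvested at once, and the group after culture (n = 4) was kept for 18 h in RPMI medium with serum and antibiotics. Every sample thus carries the bleomycin treatment, and no untreated lung was compared. The labels name neither age nor sex, do not say whether a sample was 1 mouse or a pool, and do not say that samples were separate animals. P-values therefore measure the spread between these samples, which may be technical. The extraction label speaks of total lung RNA, while the cell type label names CD103+ dendritic cells.

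Initiation is the step at which a ribosome finds the start codon of an mRNA. eIF4F binds the cap, eIF2 brings the initiator tRNA, eIF3 holds the assembly on the small ribosomal subunit, eIF1 and eIF1A keep it scanning, and eIF5 and eIF5B let the large subunit join. CD103+ dendritic cells of the lung are conventional dendritic cells that carry antigen to lymph nodes, and protein synthesis in dendritic cells is known to be adjusted as they mature, partly through phosphorylation of eIF2 and of the eIF4E-binding proteins. Such phosphorylation leaves no direct trace in transcript counts.

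Depth ran from 14.7 to 35.3 M reads in rows with a symbol. Before replicate 4 stood apart from the other samples taken before culture, with 13 of the 52 tested members lower and 6 higher by more than 0.25 on the log2 scale. After replicate 3 had 18 lower and 2 higher than the rest of its group, and after replicate 2 had 10 higher and 0 lower. The 8 markers of the conventional dendritic cell type that carries CD103 were all read, none of them at 0 in every sample. Of these markers 2 were higher and 6 lower after culture, and their summed level was 62023 to 71299 normalized counts before culture and 24645 to 30138 after it. Markers of other cells were read as well. Summed levels were 12713 to 21974 before and 813 to 1687 after culture for neutrophils (6 of 6 markers lower), 21909 to 31853 and 2744 to 3639 for endothelium (6 of 6), 15611 to 28377 and 2206 to 4422 for fibroblasts (6 of 6), and 23025 to 37063 and 4017 to 7325 for alveolar epithelium (6 of 6). None of these was at 0 in every sample either. Summed levels of T and NK cell, B cell and macrophage markers overlapped between the groups. Single markers moved even so. For T and NK cells 4 of 6 were lower and 1 higher, for B cells 1 of 4 was higher and 0 lower. For macrophages 1 of 5 was higher and 1 lower. The part of these other cells in the results that follow was not tested, and in bulk samples fewer cells of a type and less RNA per cell cannot be told apart.

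Most initiation factor transcripts moved little in culture, 30 of the 52 tested by less than 0.25 on the log2 scale. With limma, 10 of the 52 tested members rose and 14 fell at an adjusted p of 0.05, which is 46.2% of them, and 28 passed in neither direction. Of all tested genes, 68.8% were called, 34.2% higher and 34.6% lower. The share of members higher was 19.2% and the share lower 26.9%. Without before replicate 4, 10 rose and 19 fell, and under upper quartile scaling 14 rose and 13 fell. The groups did not overlap for 22 members (42.3%), against 57.3% of all tested genes. A call with at least a 2-fold change was made for 2 members (3.85%), Eif1 and Eif2b2, against 32.7% of all tested genes. The median absolute log2 fold change was 0.19 over the members and 0.635 over all tested genes. The median signed change was -0.05 over the members, or 0.058 under upper quartile scaling, and 0.0065 over all tested genes. All members together took 0.735 to 0.759% of named reads before culture and 0.659 to 0.699% after it.

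**Figure D1:**
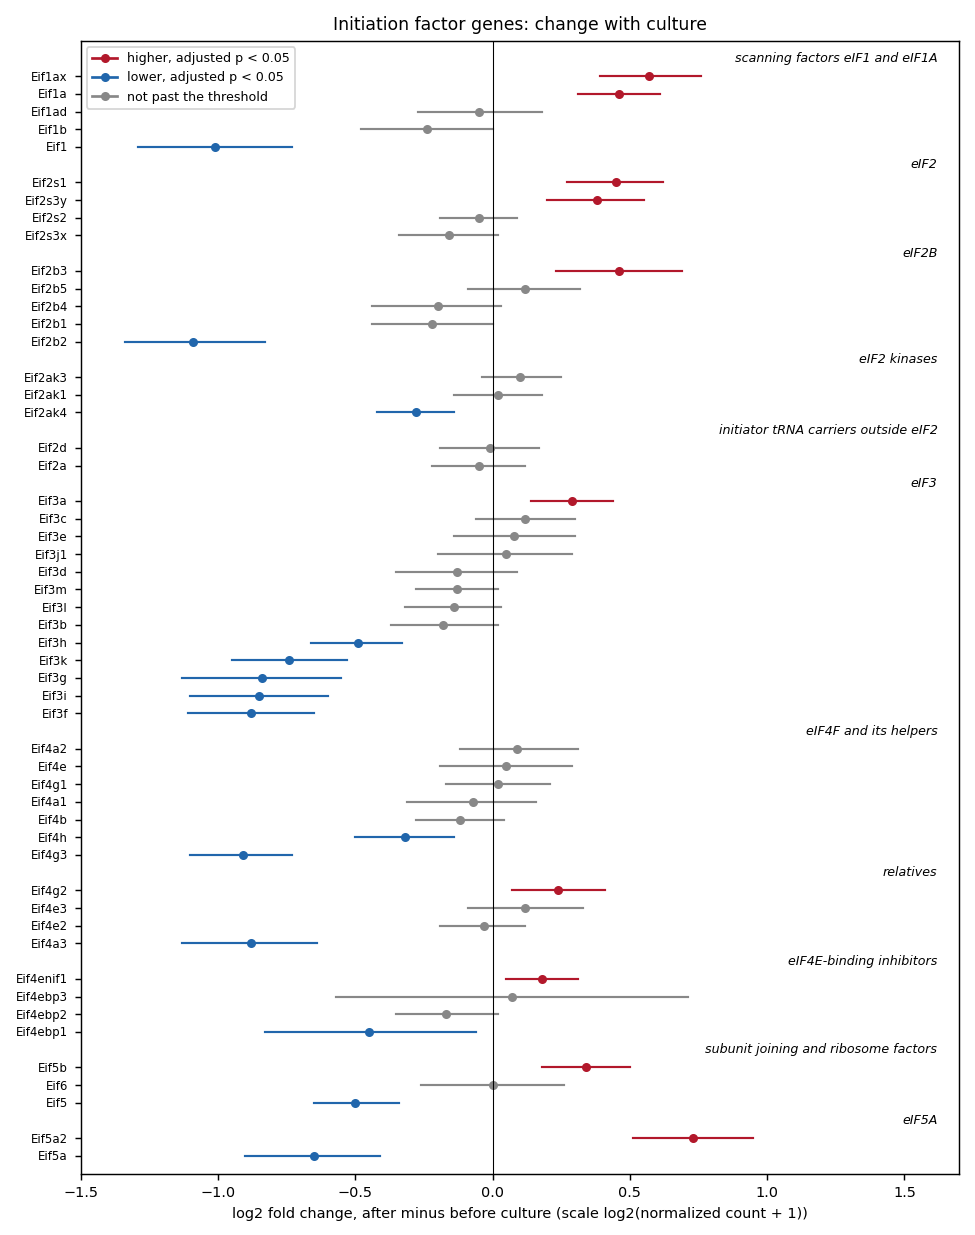
Log2 fold change, after minus before culture, of each of the 52 tested initiation factor genes on the x axis, grouped by complex, with limma's 95% interval as a line. Red points rose, blue points fell and grey points did not pass an adjusted p of 0.05. Each group that holds a called gene also holds at least 1 that did not pass, except the eIF5A pair, and all 28 grey points lie within 0.25 of 0.

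Called members differed in base composition and length. The median transcript of the 10 members that rose had 42.0% GC and 4390 bases, that of the 14 that fell 51.5% GC and 1890 bases, and that of the 28 not called 49.8% GC and 3275 bases. Across the 52 members, which share their libraries, the log2 fold change had a Pearson correlation of -0.53 with GC content and 0.46 with log2 length; across all genes with values these were -0.26 and -0.03. A fit that removes smooth trends in GC content and length also re-centred each sample by taking out its mean deviation. It called 16 members higher and 17 lower, with 17 of the 24 calls kept. The part of composition in the changes was not tested beyond this fit, and its value stands below wherever it ends a member's call or makes one. In all, 16 members kept their call and direction under every alternative run, 11 of them lower and 5 higher.

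Promoter sequence was read from RefSeq (GRCm38.p6) for 42 of the 52 tested members, as the 300 bases from 250 before to 50 after each start. The E-box CACGTG, a sequence that reads the same on both strands and is bound by the MYC, USF and TFE families, was in 10 of the 42 (23.8%), against 11.0% of tested genes with an entry and 7.15% of all 32851 starts. Among those 10 members, 2 rose, 4 fell and 4 were not called, where 68.8% of all tested genes were called. The 4 stretches below are the 150 bases before the start of 4 members that carry it and changed, shown so that the paralogs Eif5a and Eif5a2, which moved in opposite directions, can be read beside 2 eIF3 subunits that fell. Capitals mark the E-box, and positions count back from the start.
Eif3f, chr7:108934265-108934414, plus strand, E-box at -68: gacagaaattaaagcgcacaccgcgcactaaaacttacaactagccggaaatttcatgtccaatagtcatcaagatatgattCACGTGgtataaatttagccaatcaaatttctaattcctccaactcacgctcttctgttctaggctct
Eif3k, chr7:28981889-28982038, minus strand, E-box at -44: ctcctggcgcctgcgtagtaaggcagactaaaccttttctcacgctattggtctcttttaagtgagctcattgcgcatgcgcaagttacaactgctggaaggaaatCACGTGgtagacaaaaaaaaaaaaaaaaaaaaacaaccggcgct
Eif5a, chr11:69921387-69921536, minus strand, 1 of 6 listed starts, E-box at -74: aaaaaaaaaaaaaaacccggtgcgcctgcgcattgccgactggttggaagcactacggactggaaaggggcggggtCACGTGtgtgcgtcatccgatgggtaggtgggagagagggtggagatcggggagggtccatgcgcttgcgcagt
Eif5a2, chr3:28781127-28781276, plus strand, E-boxes at -142 and -117: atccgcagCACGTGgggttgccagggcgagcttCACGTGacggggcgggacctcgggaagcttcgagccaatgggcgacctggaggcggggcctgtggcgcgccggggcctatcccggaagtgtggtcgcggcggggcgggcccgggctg
Of the 6 carriers that changed, Eif5a2 and the eIF3 subunit gene Eif3a rose, and Eif3f, Eif3k, Eif4h and Eif5a fell.

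Other motifs were searched on both strands of the same windows, and whether their sites overlap E-box sites was not checked. The ETS core CCGGAAG was in 16 of 42 members (38.1%) and 17.8% of tested genes. Of those members 3 rose, 3 fell and 10 were not called, where 68.8% of all tested genes were called. The cAMP response element TGACGTCA was in 0 of 42 members and 3.30% of tested genes, and TGATGNAA, the composite element read by ATF4, was in 1 member, Eif2s3x (2.38%), and 2.84% of tested genes. A start at C followed by at least 4 pyrimidines, the 5′ end of mRNAs whose translation follows mTORC1, was listed for 2 members (4.76%) and 3.04% of tested genes. Those 2 starts are printed with the pyrimidine run in capitals, as 15 bases before and 15 bases from the start.
Eif3f, chr7:108934400-108934429, plus strand: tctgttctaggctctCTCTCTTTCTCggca
Eif2s3x, chrX:94212637-94212666, minus strand: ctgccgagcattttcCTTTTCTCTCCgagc
Of this pair Eif3f fell and Eif2s3x was not called.

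Scanning factors moved in opposite directions. Eif1, which guards the choice of start codon, had normalized counts of 16693, 15434, 16172, 9800 and 15004 before culture and 7090, 7127, 6950 and 7370 after it. Every sample after culture lay below every sample before it, and before replicate 4 was the low one of its group. The fall was 2.05-fold (log2 fold change -1.01, SE 0.13, adjusted p 1.36e-05). In the GRCm38 annotation, 31.6% of the 50-base windows of the longest Eif1 transcript also occur in transcripts of other genes, so its reads could have been split or shared. Its near copy Eif1b was 534 to 702 before and 457 to 604 after culture, overlapping ranges, and did not pass (-0.24, SE 0.11, adjusted p 0.0658); without before replicate 4 its change was -0.30 (adjusted p 0.0172), and without after replicate 2 it was -0.30 (adjusted p 0.0360).

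The eIF1A genes, whose product fills the ribosomal site where the first elongating tRNA will land, both rose. Eif1ax had 667, 726, 786, 726 and 671 normalized counts before culture and 963, 1134, 1019 and 1149 after it. Eif1a had 1504, 1513, 1566, 1614 and 1654 before and 2132, 2338, 1975 and 2208 after. Neither gene's groups overlapped, and in each the 4 cultured samples were the high ones. Eif1ax rose 1.49-fold (0.57, SE 0.08, adjusted p 4.04e-05) and Eif1a 1.38-fold (0.46, SE 0.07, adjusted p 6.03e-05). Once GC content and length were corrected for, the change was 0.23 for Eif1ax (adjusted p 0.0448) and 0.04 for Eif1a (adjusted p 0.733). Eif1ad, named for an eIF1A domain, was 519 to 732 before and 544 to 655 after culture and did not pass (-0.05, SE 0.10, adjusted p 0.694).

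Among the genes of eIF2, the carrier of the initiator tRNA, Eif2s1 and Eif2s3y rose. Eif2s1 encodes the alpha subunit, the one that stress kinases phosphorylate, and had 1427, 1445, 1655, 1682 and 1416 normalized counts before culture and 2002, 2263, 1906 and 2130 after it. The groups did not overlap, and the rise was 1.36-fold (0.45, SE 0.08, adjusted p 2.91e-04). The gamma subunit, which binds the tRNA, has an X-linked and a Y-linked gene. The Y-linked Eif2s3y had 1267, 1178, 1271, 1312 and 1344 before and 1522, 1503, 1819 and 1807 after culture, so it was read in every sample and higher in each cultured one (0.38, SE 0.08, adjusted p 0.00100). The X-linked Eif2s3x ran from 1485 to 1696 before and 1260 to 1612 after culture, with overlap, and did not pass (-0.16, SE 0.09, adjusted p 0.108); 36.2% of its windows occur in other transcripts. The beta subunit Eif2s2 ran from 1625 to 1872 and from 1668 to 1722 and did not pass (-0.05, SE 0.07, adjusted p 0.501). With the GC and length correction neither rise held: Eif2s1 was 0.08 (adjusted p 0.440) and Eif2s3y -0.21 (adjusted p 0.0512), while Eif2s2 was -0.49 (adjusted p 8.16e-05) and Eif2s3x -0.34 (adjusted p 0.00854).

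eIF2B recharges eIF2 with GTP, and its 5 subunit genes did not move as one. Eif2b2, the beta subunit of its regulatory core, had 983, 876, 1002, 668 and 859 normalized counts before culture and 401, 463, 395 and 378 after it. No sample of one group reached the other, and the fall was 2.14-fold (-1.09, SE 0.12, adjusted p 2.39e-06; -0.70 with the GC and length correction). Eif2b3, the gamma subunit of the catalytic part, had 193, 186, 199, 208 and 208 before and 282, 312, 264 and 242 after culture. It rose 1.38-fold with no overlap (0.46, SE 0.11, adjusted p 0.00192). The subunit genes Eif2b1 (-0.22, SE 0.10, adjusted p 0.0704), Eif2b4 (-0.20, SE 0.11, adjusted p 0.117) and the catalytic Eif2b5 (0.12, SE 0.10, adjusted p 0.291) overlapped between the groups and did not pass. Other settings made calls of these. With the GC and length correction Eif2b5 was 0.46 (adjusted p 4.62e-04) and Eif2b4 turned to 0.31 (adjusted p 0.0106). Without before replicate 4, Eif2b1 was -0.26 (adjusted p 0.0331) and Eif2b4 -0.25 (adjusted p 0.0497), without after replicate 2 Eif2b1 was -0.29 (adjusted p 0.0243), and without after replicate 3 Eif2b5 was 0.21 (adjusted p 0.0371).

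Of the eIF2 kinases among the members, 1 of 3 passed the test, where 68.8% of all tested genes did. Eif2ak4 (GCN2), which senses uncharged tRNA, had 1538, 1537, 1524, 1620 and 1641 normalized counts before culture and 1294, 1353, 1226 and 1310 after it. The 4 cultured samples were all lower, by 1.21-fold (-0.28, SE 0.07, adjusted p 0.00191), and with the GC and length correction the change was -0.03 (adjusted p 0.715). The heme-regulated kinase Eif2ak1 (0.02, SE 0.07, adjusted p 0.821) and the endoplasmic reticulum kinase Eif2ak3, or PERK (0.10, SE 0.07, adjusted p 0.185), did not pass; with that correction they were 0.19 (adjusted p 0.0287) and 0.41 (adjusted p 1.57e-04). Eif2a and Eif2d, which can carry initiator tRNA without eIF2, were at -0.05 (adjusted p 0.603) and -0.01 (adjusted p 0.931), and once corrected at -0.46 (adjusted p 4.35e-04) and 0.25 (adjusted p 0.0177).

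A list of 9 genes that act on eIF2 or respond to its phosphorylation was tested beside the members. Of these, 2 rose, 5 fell and 2 did not pass, where 68.8% of all tested genes were called, with a median log2 fold change of -0.18 beside 0.0065 over all tested genes. Ppp1r15a (GADD34), the stress-induced subunit that directs a phosphatase to eIF2 alpha, was 9381 ± 489 normalized counts before (SD, n = 5) and 2023 ± 222 after culture (SD, n = 4). This was a 4.64-fold fall (-2.22, SE 0.08, adjusted p 6.30e-11). Atf4, the transcription factor made when eIF2 is phosphorylated, fell 2.25-fold, from 7857 ± 477 to 3487 ± 140 (-1.17, SE 0.07, adjusted p 5.48e-09). Nck1, an adaptor that can bring a phosphatase to eIF2, rose 2.01-fold, from 686 ± 60.3 to 1378 ± 132 (1.00, SE 0.09, adjusted p 3.78e-07). The constitutive phosphatase subunit Ppp1r15b fell (-0.66, adjusted p 1.87e-06), as did Ddit3 (CHOP), a target of ATF4 (-0.70, adjusted p 4.22e-05), and the interferon-induced kinase Eif2ak2 (PKR) rose (0.85, SE 0.13, adjusted p 4.52e-05). With the GC and length correction Atf4 was -0.73 and Nck1 0.60, both still called. Impact, also among the 5 that fell, was at -0.18 (adjusted p 0.0497). Its call was lost with any 1 sample left out (adjusted p 0.0528 to 0.112), and with the GC and length correction it was -0.46 (adjusted p 7.38e-05).

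eIF3 is the largest factor, and its genes split. Of 14 subunit genes 13 were tested: 5 fell, 1 rose and 7 did not pass, with a median of -0.14. Among all tested genes, 34.6% were called lower and 34.2% higher. The 5 that fell were Eif3f, Eif3h and Eif3k of the PCI and MPN octamer, and Eif3g and Eif3i of the module built on Eif3b. Eif3f had 7996, 7379, 7627, 5527 and 7464 normalized counts before culture and 3831, 4191, 3429 and 4138 after it. Eif3i had 2123, 1923, 2185, 1483 and 1892 before and 1062, 1230, 923 and 1031 after. Eif3g, which binds RNA, had 1301, 1225, 1242, 798 and 1244 before and 664, 676, 547 and 677 after. Groups did not overlap for these 3 genes, and before replicate 4 was the lowest of its group in each.

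The falls were 1.85-fold for Eif3f (-0.88, SE 0.11, adjusted p 6.65e-06), 1.81-fold for Eif3i (-0.85, SE 0.12, adjusted p 1.93e-05) and 1.81-fold for Eif3g (-0.84, SE 0.14, adjusted p 9.00e-05). Eif3k had 3256, 3392, 3443, 2901 and 3396 normalized counts before culture and 1871, 2322, 1642 and 2053 after it (1.66-fold lower, -0.74, SE 0.10, adjusted p 1.34e-05). Eif3h had 6048, 5462, 5942, 5561 and 5817 before and 3848, 4426, 3690 and 4494 after (1.40-fold lower, -0.49, SE 0.08, adjusted p 7.24e-05), and 26.2% of its windows occur in other transcripts. Every cultured sample was below every sample taken before culture for these genes too. All 5 kept their call with the GC and length correction, at -0.73 for Eif3f, -0.86 for Eif3i, -0.47 for Eif3g, -0.47 for Eif3k and -0.34 for Eif3h.

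Eif3a, the scaffold of the complex, rose. It had 8153, 8114, 8033, 8357 and 8121 normalized counts before culture and 9564, 10792, 9166 and 10388 after it, with no overlap (1.22-fold, 0.29, SE 0.07, adjusted p 0.00220). The spread before culture was an SD of 121 around 8156, and after culture an SD of 744 around 9978. The other subunit genes lay close to 0 and overlapped between the groups: Eif3b -0.18 (adjusted p 0.0967), Eif3c 0.12 (0.227), Eif3d -0.13 (0.276), Eif3e 0.08 (0.477), Eif3j1 0.05 (0.740), Eif3l -0.14 (0.129) and Eif3m -0.13 (0.120). For Eif3j1, 39.8% of the windows occur in other transcripts. Without before replicate 4 or without after replicate 2, Eif3b passed at -0.22 (adjusted p 0.0333) and -0.24 (adjusted p 0.0296), and without after replicate 3, Eif3c passed at 0.20 (adjusted p 0.0259). With the GC and length correction Eif3b was 0.32 (adjusted p 0.00232), Eif3c 0.27 (adjusted p 0.00907), Eif3e -0.47 (adjusted p 2.95e-04) and Eif3m -0.64 (adjusted p 2.46e-05). Eif3d shares 43.3% of its exon bases with a gene on the opposite strand, and since strand handling is not given in the sources used here, their reads cannot be told apart.

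**Figure D2:**
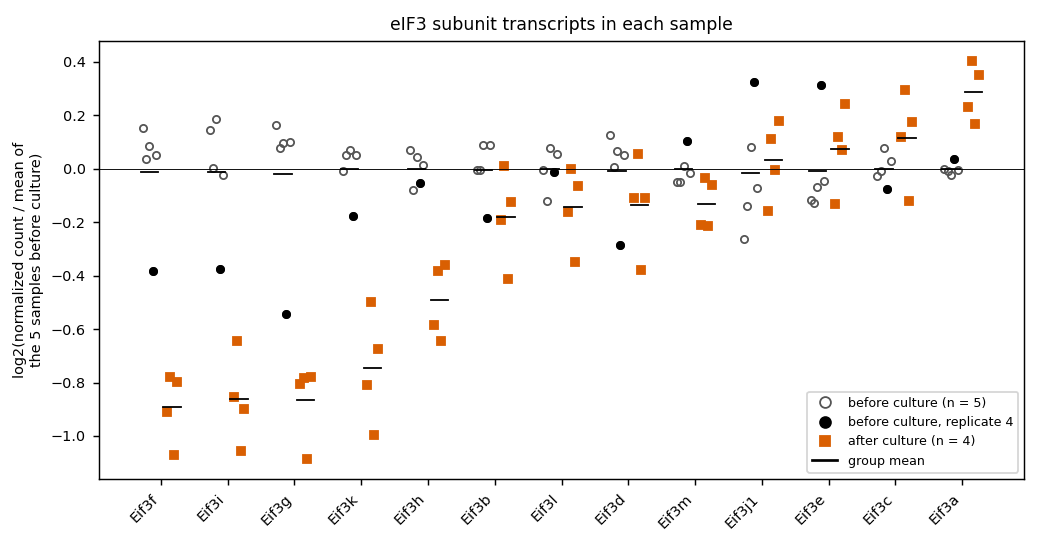
Log2 of each sample's normalized count over the mean of the 5 samples before culture (y axis), for the 13 tested eIF3 subunit genes (x axis). Open circles are samples before culture, the filled circle is before replicate 4, orange squares are the 4 cultured samples and bars are group means. The squares of Eif3f, Eif3i, Eif3g, Eif3k and Eif3h lie below all circles and those of Eif3a above them, while the other 7 genes overlap.

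No change passed for the principal subunits of the cap-binding complex eIF4F. Eif4e, which binds the cap, ran from 1569 to 2078 normalized counts before and from 1631 to 2256 after culture (0.05, SE 0.11, adjusted p 0.695, 95% interval -0.19 to 0.29). The scaffold Eif4g1 ran from 9355 to 11365 and from 9530 to 12225 (0.02, SE 0.09, adjusted p 0.848, interval -0.17 to 0.21). The helicase Eif4a1 ran from 14404 to 16619 and from 11417 to 17248 (-0.07, SE 0.11, adjusted p 0.569, interval -0.31 to 0.16), with after replicate 3 the lowest sample, and 33.3% of its windows occur in other transcripts. For none of these genes did the groups separate, and the intervals leave room for changes of the size shown. The second helicase gene Eif4a2 (0.09, adjusted p 0.411) and the helicase cofactor Eif4b (-0.12, adjusted p 0.167) did not pass. With the GC and length correction Eif4g1 was called higher at 0.53 (adjusted p 2.25e-05), Eif4a2 was -0.32 (adjusted p 6.20e-04) and Eif4e -0.26 (adjusted p 0.0659).

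Eif4g3, a second scaffold gene, had 8234, 7850, 7760, 7048 and 8180 normalized counts before culture and 4207, 4698, 3502 and 4247 after it. All cultured samples were below all others, a 1.88-fold fall (-0.91, SE 0.09, adjusted p 6.89e-07; -0.49 with the GC and length correction). Eif4h, a cofactor of the helicase, had 6494, 6291, 6673, 5625 and 6487 before and 4947, 5663, 4445 and 5188 after culture. It passed at -0.32 (SE 0.08, adjusted p 0.00334), although before replicate 4 lay below after replicate 2, and with the GC and length correction it was 0.15 (adjusted p 0.0722).

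Relatives of eIF4F subunits with other duties were mixed. Eif4a3, the helicase that marks exon junctions, had 2077, 1990, 2037, 1493 and 1990 normalized counts before culture and 1051, 1192, 852 and 1064 after it. The groups did not overlap, and the fall was 1.84-fold (-0.88, SE 0.11, adjusted p 1.32e-05); 24.4% of its windows occur in other transcripts. Eif4g2 (DAP5), a scaffold that lacks the cap-binding protein's site, had 18207, 19259, 19905, 19956 and 19155 before and 20967, 25054, 21232 and 24139 after culture (0.24, SE 0.08, adjusted p 0.0170). That call was lost without after replicate 2 (0.19, adjusted p 0.0508), without after replicate 4 (0.21, adjusted p 0.0521) and with the GC and length correction (0.14, adjusted p 0.140). The cap-binding relatives Eif4e2 (-0.03, adjusted p 0.692) and Eif4e3 (0.12, adjusted p 0.278) did not pass.

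The eIF4E-binding inhibitors hold eIF4E away from its scaffold until mTORC1 phosphorylates them. Eif4ebp1 had 745, 740, 841, 423 and 702 normalized counts before culture and 521, 594, 394 and 485 after it. The groups overlapped only through before replicate 4, the second lowest of all 9 samples. The change was -0.45 (SE 0.18, adjusted p 0.0386); without before replicate 4 it was -0.61 (adjusted p 4.81e-04), and without each of 7 other samples in turn the adjusted p rose above 0.05, to at most 0.114. The call was also lost without the filter on low counts (-0.45, adjusted p 0.202), under upper quartile scaling (-0.34, adjusted p 0.0867), quantile normalization (-0.37, adjusted p 0.0645) and the GC and length correction (-0.43, adjusted p 0.0534). Eif4ebp2, the second inhibitor, did not pass (-0.17, SE 0.09, adjusted p 0.105). It passed with the GC and length correction in the opposite direction (0.25, adjusted p 0.0108), without before replicate 4 (-0.20, adjusted p 0.0484) and without after replicate 4 (-0.22, adjusted p 0.0499). Eif4ebp3 was low, at 16.8 to 39.4 before and 21.3 to 45.5 after culture (0.07, SE 0.30, adjusted p 0.852). For this gene 65.5% of the windows occur in other transcripts, and 67.3% of the exon bases overlap a gene on the same strand. Eif4enif1 (4E-T), which carries eIF4E into the nucleus and to P-bodies, ran from 1678 to 1763 before and from 1900 to 1993 after culture, without overlap, and rose 1.14-fold (0.18, SE 0.06, adjusted p 0.0149; 0.39 with the GC and length correction).

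Genes that regulate eIF4F through mTORC1 and the MNK kinases were called about as often as genes at large. Of 17 tested, 6 rose, 6 fell and 5 did not pass, beside 34.2% higher and 34.6% lower among all tested genes, with a median of 0.01. Sesn2, an amino acid sensor that restrains mTORC1, fell 2.68-fold, from 2504 ± 214 normalized counts (SD, n = 5) to 933 ± 20.2 (SD, n = 4; -1.42, SE 0.08, adjusted p 2.23e-09). Rhebl1, a relative of the mTORC1 activator Rheb, rose from 58.0 ± 6.11 to 130 ± 29.6 (1.13, SE 0.19, adjusted p 1.14e-04), while Rheb itself fell (-0.29, SE 0.06, adjusted p 9.15e-04). Rptor, the subunit by which mTORC1 grips the eIF4E-binding proteins, rose 1.88-fold, from 3121 ± 170 to 5853 ± 336 (0.91, SE 0.07, adjusted p 7.59e-08). Mtor was at 0.01 (SE 0.07, adjusted p 0.892). Mknk2, a kinase of eIF4E, fell (-0.64, SE 0.08, adjusted p 1.54e-05). Once composition was corrected for, Mknk2 was 0.08 (adjusted p 0.302), Sesn2 -0.78, Rptor 1.56 and Mtor 0.58 (adjusted p 1.50e-06).

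Of 20 listed genes whose proteins bind initiation factors, 19 were matched and tested: 8 rose, 6 fell and 5 did not pass, with a median of -0.00. That share of calls is near the 68.8% of all tested genes. Bzw2 and Bzw1 encode mimics of eIF5 that compete for its partners. Bzw2 fell 2.25-fold, from 1243 ± 35.8 normalized counts (SD, n = 5) to 553 ± 21.2 (SD, n = 4; -1.17, SE 0.07, adjusted p 5.55e-09). Bzw1 rose 1.59-fold, from 4888 ± 310 to 7784 ± 651 (0.67, SE 0.08, adjusted p 4.17e-06). Paip1, which ties the poly(A)-binding protein to eIF4A and eIF3, rose 1.77-fold (0.82, SE 0.07, adjusted p 2.85e-07). Mcts2, a retrogene copy of Mcts1, fell (-1.03, SE 0.16, adjusted p 8.11e-05) while Mcts1 rose (0.34, SE 0.10, adjusted p 0.00817; -0.22, adjusted p 0.0775, with the GC and length correction), and the 2 copies could share reads. That correction gave 0.36 for Bzw1 and 0.38 for Paip1, both still called. Pdcd4, the inhibitor of eIF4A, did not pass (-0.29, SE 0.12, adjusted p 0.0529). It passed with that correction (-0.56, adjusted p 5.25e-04), without before replicate 1 (-0.33, adjusted p 0.0442) or 2 (-0.33, adjusted p 0.0415), and without after replicate 3 (-0.37, adjusted p 0.0201) or 4 (-0.37, adjusted p 0.0217).

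**Figure D3:**
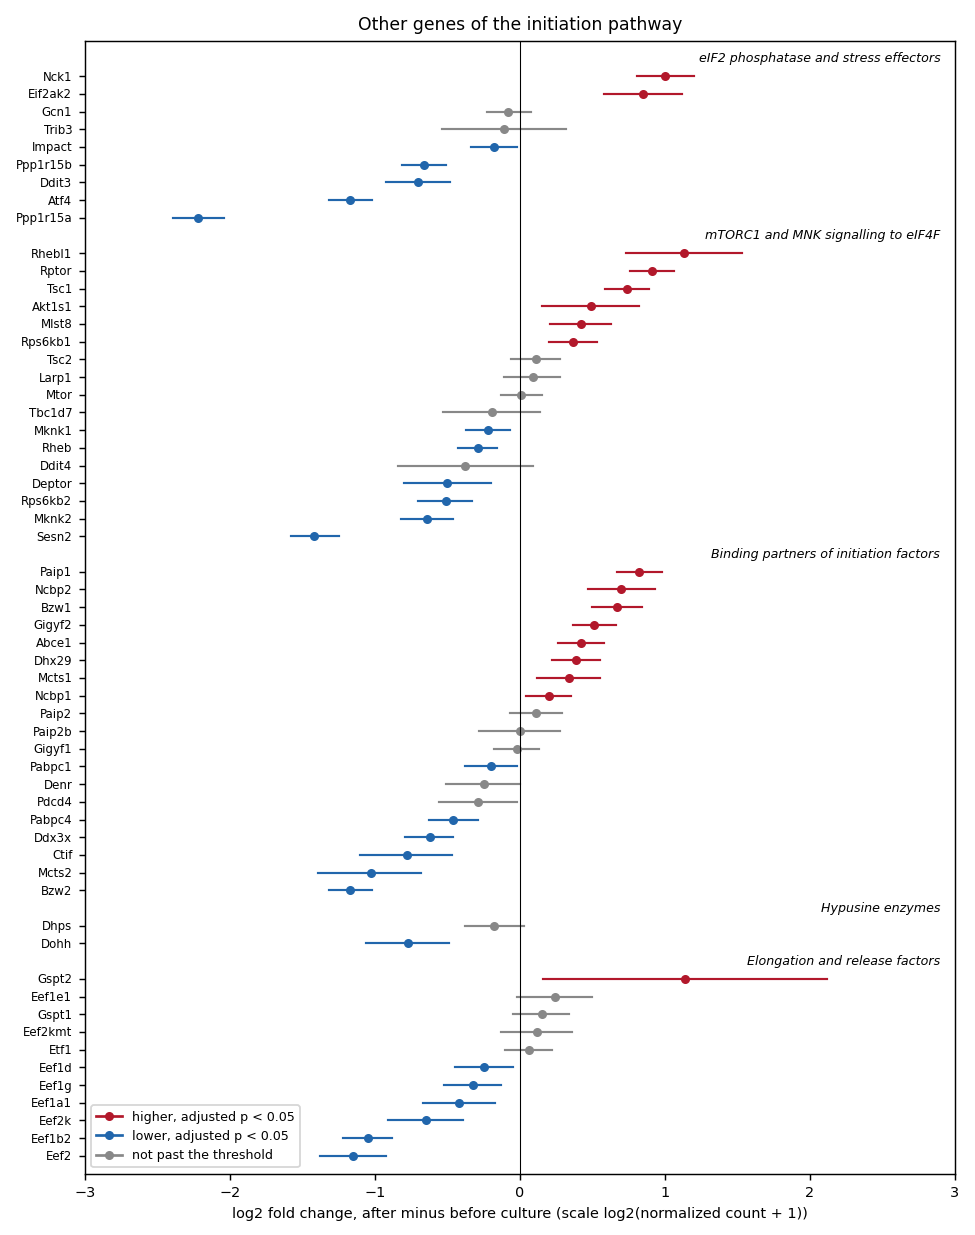
Log2 fold change, after minus before culture, of the 58 tested genes of the wider initiation pathway on the x axis, in their 5 lists, with limma's 95% interval as a line. Of these, 17 rose (red), 24 fell (blue) and 17 did not pass (grey), and Ppp1r15a at -2.22 lies farthest from 0.

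Factors of subunit joining also diverged. Eif5, the GTPase activator of eIF2, had 8299, 8305, 8733, 9787 and 9106 normalized counts before culture and 5922, 6550, 6346 and 6229 after it. Here before replicate 4 was the high sample, and no cultured sample reached the others (1.41-fold lower, -0.50, SE 0.07, adjusted p 3.66e-05; -0.79 with the GC and length correction). Eif5b, the GTPase that joins the large subunit, had 2174, 2153, 2242, 2366 and 2273 before and 2622, 3036, 2624 and 3092 after culture. It rose 1.27-fold without overlap (0.34, SE 0.07, adjusted p 0.00107), and 16.9% of its exon bases overlap a gene on the opposite strand. Eif6, which keeps the large subunit from joining too early, ran from 1174 to 1768 and from 1346 to 1741 and did not pass (-0.00, SE 0.12, adjusted p 0.994, interval -0.26 to 0.26), and with the GC and length correction it was 0.51 (adjusted p 3.45e-04).

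The 2 genes of eIF5A moved apart. eIF5A carries the modified lysine hypusine and helps ribosomes past difficult peptide bonds. Eif5a had 12322, 11771, 12794, 9904 and 12594 normalized counts before culture and 7501, 9300, 6156 and 7460 after it. Its paralog Eif5a2 had 330, 322, 367, 438 and 387 before and 576, 619, 593 and 648 after. In neither gene did the groups overlap: every cultured sample was low for Eif5a and high for Eif5a2. Eif5a fell 1.56-fold (-0.65, SE 0.11, adjusted p 1.72e-04) and Eif5a2 rose 1.65-fold (0.73, SE 0.10, adjusted p 2.84e-05). With the GC and length correction these were -0.29 (adjusted p 0.0251) and 0.33 (adjusted p 0.00646). Of the enzymes that make hypusine, Dohh fell (-0.77, SE 0.13, adjusted p 1.56e-04; -0.04, adjusted p 0.695, with that correction) and Dhps did not pass (-0.18, SE 0.10, adjusted p 0.122; 0.21, adjusted p 0.0546, with that correction). Without after replicate 1 Dhps passed at -0.25 (adjusted p 0.0379).

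Of 11 elongation and release factor genes tested for comparison, 1 rose, 6 fell and 4 did not pass, with a median of -0.25. Among all tested genes, 34.2% were called higher and 34.6% lower. Eef2, which moves the ribosome along, fell 2.22-fold, from 72049 ± 7061 normalized counts (SD, n = 5) to 32430 ± 3042 (SD, n = 4; -1.15, SE 0.10, adjusted p 4.56e-07; -0.60 with the GC and length correction). Eef1b2, a nucleotide exchange subunit for eEF1A, fell 2.06-fold (-1.05, SE 0.08, adjusted p 7.58e-08). Eef1d (-0.25, adjusted p 0.0292) and Eef1g (-0.32, adjusted p 0.00643) fell with overlapping groups. Neither call held with the GC and length correction (-0.21, adjusted p 0.0632, and -0.08, adjusted p 0.442). That of Eef1d was also lost without before replicate 1, 2 or 3 and without after replicate 1, 3 or 4 (adjusted p at most 0.0950). The release factor Gspt2 was low, at 13.3 ± 8.13 and 28.3 ± 12.5, and passed with overlapping groups (1.14, SE 0.46, adjusted p 0.0393). The call was lost without before replicate 2 (0.94, adjusted p 0.0906) or 4 (0.88, adjusted p 0.0843) and without after replicate 1 (0.96, adjusted p 0.114) or 2 (0.94, adjusted p 0.110). Over all 5 lists, 41 of 58 genes were called, where 68.8% of all tested genes were.

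Partner genes were also compared as log2 ratios within each sample, which need no scaling between samples. A ratio is not corrected for length, so its change is read and not its level. Of 13 ratios tested by a two-sided exact permutation of the 9 samples, 5 passed at an adjusted p of 0.0413 over the 13. Each had an exact p of 0.0159, the smallest that 5 samples against 4 can give. For Eif5a2 over Eif5a and Bzw1 over Eif5, both genes had already separated without overlap in opposite directions. Their ratios had to reach that p, so these passes restate the single-gene results. The adjusted p of the remaining passes counts these among the 5 as well, and an adjustment without them was not run. The ratio of Eif5a2 to Eif5a was -5.22, -5.19, -5.12, -4.50 and -5.02 before culture and -3.70, -3.91, -3.37 and -3.52 after it, a rise of 1.38 (0.62 with the GC and length correction). The ratio of Bzw1, the eIF5 mimic, to Eif5 was -0.85, -0.85, -0.79, -0.87 and -0.91 before and 0.29, 0.38, 0.19 and 0.38 after culture. This rise of 1.17 was many times the spread within either group, with SDs of 0.045 and 0.093, and the correction left it at 1.15.

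The other 3 ratios that passed paired related genes. The ratio of Eif4g3 to Eif4g1 was -0.36, -0.49, -0.55, -0.41 and -0.44 before culture and -1.33, -1.38, -1.44 and -1.38 after it, a fall of 0.93 on the log2 scale. Here before replicate 4 lay inside its group, and after replicate 3 was the lowest of the cultured samples. The ratio of Eif1b to Eif1 rose by 0.77, from -4.75 to -4.20 before culture to -3.92 to -3.56 after it. Eif2s3y over Eif2s3x rose by 0.54, from -0.47 to -0.18 to -0.10 to 0.53, and with the GC and length correction by 0.14 (adjusted p 0.124). Ratios that did not pass include Eif1a over Eif1ax (-0.11, adjusted p 0.232), Eif4a2 over Eif4a1 (0.17, adjusted p 0.525), Eif4ebp1 over Eif4e (-0.50, adjusted p 0.232), Eif4ebp2 over Eif4ebp1 (0.28, adjusted p 0.252) and Eif4g2 over Eif4g1 (0.22, adjusted p 0.103). Without before replicate 4 the last 3 also passed, at -0.70, 0.41 and 0.28 (adjusted p 0.0464 each, exact permutation). That adjusted p also counts Eif5a2 over Eif5a and Bzw1 over Eif5, whose outcomes were fixed, and it was not computed without them.

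**Figure D4:**
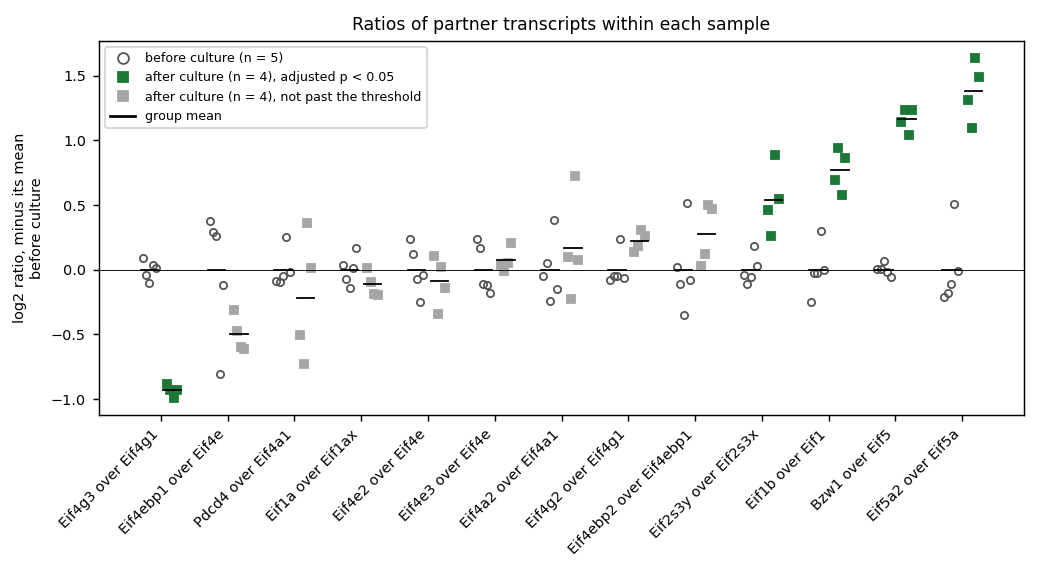
Log2 ratio of 2 partner transcripts in each sample, minus its mean before culture (y axis), for the 13 pairs (x axis). Circles are the 5 samples before culture, squares the 4 cultured samples (green where the adjusted p passed) and bars group means. The green squares lie apart from the circles, below them for Eif4g3 over Eif4g1 and above them for the other 4 ratios that passed.

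The other 17 members were not tested for low counts. Of these, 14 were listed at 0 in every sample, among them 12 numbered copies of Eif1ad, the helicase copy Eif4a3l1, and Eif2c5l, whose name refers to the Argonaute family. Eif3j2, a copy of Eif3j1, ran from 0.952 to 7.16 normalized counts before culture and from 4.55 to 6.08 after it, and 91.9% of its windows occur in other transcripts. Eif4a3l2 reached at most 2.27, as did Eif4e1b, the egg cell form of the cap-binding protein, which was above 0 only in after replicate 2.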

How the data were processed

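Per the labels, column-purified total RNA of the 9 samples went to a company for library making and sequencing. The authors deposited 1 table of normalized counts (unit signal, at least 0). The submitters' processing notes name DESeq2 and GRCm38; the aligner, counter and strandedness are not given in the sources used here. All values (100.0%, within 1e-06) were whole multiples of 1 read's worth, so whole reads were recovered. The 3782 of 49317 rows without a symbol, which held 3.87 to 10.9% of reads, were left out.

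Genes with a mean of at least 10 were fitted with limma 3.58.1 (R 4.3.3) after taking log2 of the value plus 1 (mean-variance trend, two-sided, Benjamini-Hochberg over 18202 genes, threshold 0.05), and fold changes are on that scale, which understates those of low genes. The fit was tested on simulated data in which 200 genes were changed 2-fold. It recovered 193 of them at a dispersion (spread between replicates) of 0.02, and 47 at 0.1. Of the calls, 4.46% and 0% were false. The simulation changed far fewer genes than the 68.8% called in the data. Alternatives were edgeR 4.0.16 and DESeq2 1.42.0 on recovered reads, which both called 24 members (10 higher, 14 lower), other scalings, pseudocounts and filters, sample weights, a replicate block, a GC and length correction (values for 96.5% of genes) and each sample left out. Members and lists were chosen with earlier results of these data known. All tested members were described; of each pathway list, the 3 called genes with the largest changes were named, and further ones after their values were seen.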

Additional observations from a re-analysis of the deposited data

Results flagged for a closer look

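Each tested member was checked for a sample far from the rest of its group: the gap from the highest or lowest sample to the nearest other, over the group's range, had to exceed Dixon's 95% critical value. Of 104 groups, 8 had such a sample, where chance gives about 5. Before replicate 4 was that sample in 7 of the 8. It was low for Eif1, at 9800 normalized counts where the next sample had 15004, and for Eif3f, at 5527 against 7379. Eif3g was low there at 798 against 1225, Eif4a3 at 1493 against 1990, and Eif6 at 1174 against 1600. The same sample was high for Eif3e, at 4204 against 3274, and for Eif4a2, at 5913 against 4758. Eif3g was low in after replicate 3, at 547 against 664. For Eif1, Eif3f, Eif3g and Eif4a3 the low sample lies on the side of the cultured samples, and their changes without it were -1.15, -0.97, -0.97 and -0.97. The labels give no detail by which this sample differs.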

How the results depend on the processing

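Of the 24 calls among members, 21 were kept under every alternative except the GC and length correction, and 16 under that one too. That correction, which also re-centred each sample, called 16 members higher in place of 10. It gave a median of 0.012 in place of -0.050, and moved the median of all genes to 0.13, a shift that includes the re-centring. It turned Eif2b4 to 0.31, Eif2d to 0.25, Eif2s3y to -0.21, Eif3b to 0.32, Eif3e to -0.47, Eif4a2 to -0.32, Eif4ebp2 to 0.25, Eif4h to 0.15, Eif6 to 0.51 and the ratio of Eif4g2 to Eif4g1 to -0.39; the cause was not tested. Upper quartile scaling gave a median of 0.058 and moved that of all genes to 0.114. With a sample left out, the number of ratios past the threshold ran from 0 to 8 (5 in full): 4 against 4 samples cannot give an exact p below 0.0286, nor 5 against 3 below 0.0357, and 8 passed only without before replicate 4. Calls with a sample left out ran from 9 to 12 higher and 13 to 19 lower. The replicate block by title number gave 8 higher and 13 lower, losing Eif4ebp1 (-0.43, adjusted p 0.0665), Eif4enif1 (0.18, adjusted p 0.0601) and Eif4g2; by library number it gave 10 and 18. Deviations of same-numbered samples correlated at -0.213 to 0.0807 by title number and 0.0447 to 0.349 by library number, so not every pair was above 0.1 and the numbers were not taken as pairs; by library number each cultured sample correlated best with its own number, a hint from the data and not from the design. Without the filter on low counts, 10 rose and 13 fell, with Eif4ebp1 lost.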
